A study of Mus musculus with 8 samples.

Results

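The pro-survival BCL2 family genes were described here across germinal centre B cells with and without floxed Bach2. The members were the 7 genes Bcl2, Bcl2l1 (encoding BCL-XL), Bcl2l2 (BCL-W), Mcl1, Bcl2a1a, Bcl2a1b and Bcl2a1d (copies of the gene for A1/BFL-1), taken by symbol from an expression table of 23234 genes. All 7 were listed, and 6 passed the filter on low values. Bcl2 did not.

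Donor naive B cells carrying the B1-8hi antigen receptor, which binds the hapten NP, were transferred into wild-type mice. All donors were on a C57BL/6 background and carried ERT2cre(KI/+), B1-8hi(KI/+) and Prdm1(f/f), so that Prdm1 (Blimp1, the plasma cell factor) was floxed in the controls too. They were either Bach2(+/+) or Bach2(f/f). ERT2cre is a Cre recombinase that works only with tamoxifen, which was given at 3 mg for 3 days before immunization with NP-CGG in alum. On day 10, NP-binding GL7+ CD38- donor cells were sorted from the pooled spleens of 5 recipients into light zone (LZ; CD86 high, CXCR4 low) and dark zone (DZ; CD86 low, CXCR4 high) cells. Each of the 4 groups, Bach2(+/+) LZ, Bach2(f/f) LZ, Bach2(+/+) DZ and Bach2(f/f) DZ, had 2 RNA-seq libraries, each from about 30000 cells. The ages of the animals are not given in the sources used here, and cells with an unaltered Prdm1 gene were not analysed here. The labels do not say whether the 2 libraries of a group came from separate pools, so p-values cover no more than library-to-library spread, which may be technical.

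BCL2 family proteins decide whether the outer mitochondrial membrane is opened to release cytochrome c, which starts apoptosis. The pro-survival members bind and hold BAX, BAK and the BH3-only proteins such as BIM (Bcl2l11). Germinal centre B cells are known for low Bcl2 and for a need for MCL1, a protein of fast turnover, and A1 is known as a gene induced by antigen receptor, CD40 and NF-kB signals. Each germinal centre B cell moves between the DZ, where it divides, and the LZ, where it meets antigen and T cell help.

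The mouse Bcl2a1 genes are near-identical copies, which limits what an expression value can say about any one of them. The longest open reading frames of their GENCODE M21 transcripts (519 bases each) were 97.9% identical between Bcl2a1a and Bcl2a1b, 98.7% between Bcl2a1a and Bcl2a1d and 98.8% between Bcl2a1b and Bcl2a1d. Only 12 positions of the frame differed among the 3 copies, and 6 of these lay in its first 60 bases, printed here 5′ to 3′ because they hold the densest set of differences. Capitals mark the positions at which the copies differ.
Bcl2a1a: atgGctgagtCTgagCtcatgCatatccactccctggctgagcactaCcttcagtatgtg
Bcl2a1b: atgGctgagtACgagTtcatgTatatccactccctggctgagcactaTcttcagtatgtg
Bcl2a1d: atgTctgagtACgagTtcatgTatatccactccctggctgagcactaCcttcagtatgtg
Of all 50-base windows of each transcript, 31.0% of those of Bcl2a1a, 42.4% of Bcl2a1b and 20.5% of Bcl2a1d occurred in no other copy. Of the 100-base windows the shares were 56.5%, 68.9% and 45.3%. A read that lies within one of the remaining windows fits more than 1 copy. The read length, the strand setting and the treatment of such reads are not given in the sources used here.

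The copies also share their upstream sequence. RefSeq windows of the 250 bases before the start site (GRCm38.p6) are printed 5′ to 3′ on the gene's strand for the 3 copies, which moved together in the data described further on: chr9:88956670-88956919 on the plus strand for Bcl2a1a, chr9:89199023-89199272 on the plus strand for Bcl2a1b and chr9:88731851-88732100 on the minus strand for Bcl2a1d. Capitals mark matches to TGANTCA, a loose form of the core of AP-1 and BACH factors in which N is any letter. The matches printed here all read TGAATCA, and whether these factors recognise that form was not tested.
Bcl2a1a: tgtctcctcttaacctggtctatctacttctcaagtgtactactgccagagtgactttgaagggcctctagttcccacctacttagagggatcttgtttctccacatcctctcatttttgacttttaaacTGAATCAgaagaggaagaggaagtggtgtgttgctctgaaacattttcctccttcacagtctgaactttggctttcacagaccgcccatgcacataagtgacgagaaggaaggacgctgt
Bcl2a1b: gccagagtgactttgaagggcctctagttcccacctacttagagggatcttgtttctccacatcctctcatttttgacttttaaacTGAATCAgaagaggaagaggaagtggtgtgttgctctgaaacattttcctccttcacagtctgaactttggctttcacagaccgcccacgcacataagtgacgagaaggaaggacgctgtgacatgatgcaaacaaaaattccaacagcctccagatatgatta
Bcl2a1d: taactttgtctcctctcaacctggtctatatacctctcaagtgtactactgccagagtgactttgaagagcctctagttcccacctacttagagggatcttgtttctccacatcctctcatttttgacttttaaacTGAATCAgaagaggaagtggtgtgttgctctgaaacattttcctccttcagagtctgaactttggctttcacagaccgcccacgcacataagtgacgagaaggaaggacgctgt
Each window held 1 match, preceded by the same 40 letters in all 3, and the annotated start sites lay at different distances from it. The match began 120 bases before the start of Bcl2a1a, 164 before that of Bcl2a1b and 114 before that of Bcl2a1d. Where the windows could be aligned, Bcl2a1a and Bcl2a1b were identical at 205 of 206 bases and Bcl2a1a and Bcl2a1d at 238 of 244.

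In all, the 7 members had 9 such windows, since Bcl2l1 has 3 annotated starts. TGANTCA occurred, on either strand, in 3 of the 9, those of the Bcl2a1 copies, and in 6.75% of 32851 windows of the same length before mouse genes. The 3 windows share the sequence around the match, so they are not 3 separate occurrences to set against that share. The NF-kB consensus occurred in 1 of the 9 (a Bcl2l1 window) and in 7.25% of all windows. TTCNNNGAA, the spacing of a STAT site, and the FOXO core TGTTTAC occurred in 0 of the 9, against 7.02% and 3.17% of all windows. No match overlapped another. A match describes letters in a window and says nothing on whether a factor was bound in these cells.

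Levels are given as FPKM, fragment counts divided by transcript length and library size. The unit is corrected for transcript length and so can be set side by side between genes. Differences are on the log2(FPKM + 1) scale with their SE. This scale makes the change of low genes look smaller, and folds are ratios of mean FPKM. Tests were made with limma over 10610 genes, with Benjamini-Hochberg adjustment, and a gene passed when its adjusted p was under 0.05. The table held no counts, so absolute depth is unknown. Judged from the commonest ratio of the lowest values, libraries were 1 to 1.1 times as deep as Bach2(+/+) LZ replicate 1 in LZ and 1.42 to 1.63 times as deep in DZ. Of the germinal centre B cell markers, Bcl6 was at 114 to 130 FPKM over the 8 libraries, Fas at 75.3 to 112, S1pr2 at 109 to 164 and Mef2b at 156 to 186, and all 4 T cell markers found were below 1 in every library. Among LZ libraries, Bach2 transcripts were at 49.8 and 53.4 FPKM with Bach2(+/+) and at 64.5 and 62.7 with Bach2(f/f). Among DZ libraries they were at 76.2 and 74.6 with Bach2(+/+) and at 96.2 and 94.5 with Bach2(f/f). Bach2 was thus higher with floxed Bach2, by 0.30 ± 0.044 in LZ and by 0.33 ± 0.044 in DZ. Both differences passed the threshold (0.00454 and 0.00894 after adjustment, limma). The deleted exon is not given in the sources used here, and a value over the whole gene checks nothing about the deletion. Prdm1 was at 0.0184 to 0.122 FPKM in Bach2(+/+) and 0.258 to 0.980 in Bach2(f/f) libraries.

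Mcl1 and the Bcl2a1 copies had the highest levels of the family in all 4 groups. In Bach2(+/+) LZ cells the order of mean levels was Mcl1 at 191 ± 2.18 FPKM (SD, n = 2), Bcl2a1b at 123 ± 23.8, Bcl2a1d at 72.2 ± 12.8, Bcl2a1a at 44.0 ± 6.69, Bcl2l1 at 11.4 ± 0.699, Bcl2l2 at 1.95 ± 0.442 and Bcl2 at 0.635 ± 0.0308. The libraries of neighbours in this order did not overlap. The order of means was the same in the other 3 groups. In DZ the Bcl2a1 copies stood further below Mcl1, and Bcl2a1a in Bach2(f/f) DZ (6.90 ± 0.0128) was close to Bcl2l1 (5.46 ± 0.297). Mcl1 exceeded more than 95% of the genes tested in each of the 4 groups (95.3% to 96.6%). Bcl2a1b exceeded 94.4% of them in Bach2(+/+) LZ and 62.2% in Bach2(f/f) DZ.

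**Figure D1:**
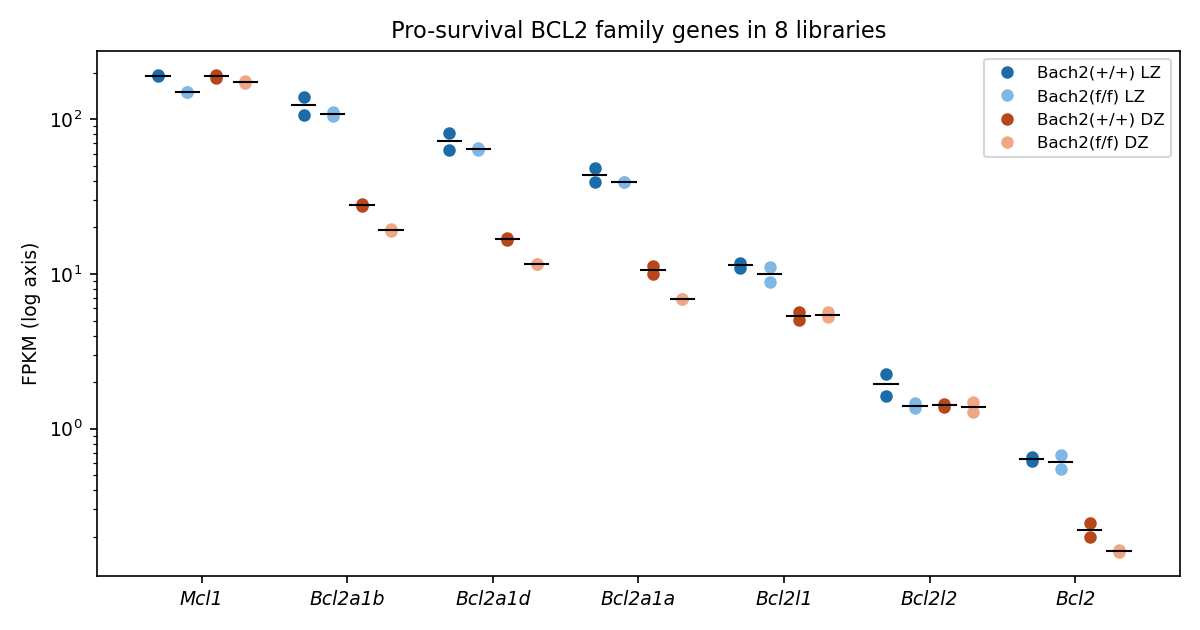
Level of each of the 7 members in each of the 8 libraries, as FPKM on a log axis. Points are libraries, coloured by group, and short lines are group means (n = 2). The Bcl2a1 copies, Bcl2l1 and Bcl2 sit lower in both DZ groups, while Mcl1 stays between 149 and 195 FPKM in all libraries.

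The Bcl2a1 copies were the members that differed most between the zones, and all 3 were higher in LZ in both genotypes. Bcl2a1b, the most abundant copy by FPKM, was at 106 and 140 FPKM in Bach2(+/+) LZ, 111 and 105 in Bach2(f/f) LZ, 27.5 and 28.4 in Bach2(+/+) DZ and 19.4 and 19.0 in Bach2(f/f) DZ. Every LZ library thus lay above every DZ library, and the Bach2(f/f) DZ libraries were the lowest. Bcl2a1d was at 63.2 and 81.3, 63.7 and 64.9, 16.7 and 17.0, and 11.7 and 11.7 in the same order of groups. Bcl2a1a was at 39.3 and 48.7, 39.6 and 39.2, 10.0 and 11.2, and 6.89 and 6.91. The same ranking of groups by their means held for each copy.

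With Bach2 intact, Bcl2a1b was 4.40-fold higher in LZ than in DZ (2.08 ± 0.12, adjusted p = 0.000178, limma). Bcl2a1d was 4.28-fold higher (2.02 ± 0.11) and Bcl2a1a 4.14-fold higher (1.95 ± 0.10). In Bach2(f/f) cells the LZ to DZ folds were 5.63 for Bcl2a1b (2.43 ± 0.12, adjusted p = 7.4e-05, limma), 5.51 for Bcl2a1d and 5.71 for Bcl2a1a. Among the 10610 genes tested, ordered from the largest LZ excess, the 3 copies stood at places 30 to 36 in Bach2(+/+) and 33 to 36 in Bach2(f/f). Without Bach2(f/f) LZ replicate 2, the zone difference of Bcl2a1b in Bach2(f/f) was 2.47 ± 0.15. In bulk samples, fewer cells of a type and less RNA per cell cannot be told apart.

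Marker genes moved with this zone difference. The summed FPKM of 4 light zone markers (Cd86, which was used in the sort, Cd83, Cd40 and Nfkbia) was 583 to 608 in Bach2(+/+) LZ, 518 to 520 in Bach2(f/f) LZ, 199 to 218 in Bach2(+/+) DZ and 159 to 164 in Bach2(f/f) DZ. This is the same order of groups as for the Bcl2a1 copies. Of the naive and memory B cell markers, Fcer2a was at 270 to 292 FPKM, 140 to 144, 68.8 to 70.9 and 28.0 to 29.2 in the same order of groups. Cd38, whose absence was part of the sort, was at 12.7 to 14.8 FPKM in Bach2(+/+) LZ and 4.02 to 7.10 in the other groups. Ccr6 was at 3.106 to 3.402 FPKM in Bach2(+/+) LZ and below 1 in the other groups, and Klf2 was at 3.00 to 11.3 with no such order. The part of these markers in the results was not tested. Bcl2a1 is also expressed by myeloid cells. The 6 myeloid markers (Lyz2, S100a8, S100a9, Itgam, Csf1r and Tyrobp) summed to 6.42 and 50.1 FPKM in the Bach2(+/+) LZ libraries, 20.4 and 141 in the Bach2(f/f) LZ libraries and 0.919 to 2.62 in DZ. Itgam and Csf1r were below 1 FPKM in every library. Between the Bach2(f/f) LZ libraries, the summed Bcl2a1 copies were at 214 in replicate 1 and 209 in replicate 2, while the myeloid sum was lower in replicate 1. Between the Bach2(+/+) LZ libraries they were at 209 and 270, in the same direction as the myeloid sum. The part of myeloid cells in the Bcl2a1 values was not tested.

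In DZ cells the Bcl2a1 copies were lower in Bach2(f/f) than in Bach2(+/+). The mean went from 10.6 ± 0.829 to 6.90 ± 0.0128 FPKM for Bcl2a1a (-0.55 ± 0.10, adjusted p = 0.0214, limma), from 28.0 ± 0.635 to 19.2 ± 0.283 for Bcl2a1b (-0.52 ± 0.12, adjusted p = 0.0385, limma) and from 16.9 ± 0.241 to 11.7 ± 0.00686 for Bcl2a1d (-0.49 ± 0.11, adjusted p = 0.0338, limma). Both Bach2(f/f) libraries lay below both Bach2(+/+) libraries for each copy. The share of all genes without overlap is not given here, so this adds nothing to the tests. As 1 summed value, the copies fell by 0.54 ± 0.11 (adjusted p = 0.0280, limma). Each of the 3 calls was lost when any 1 of the 4 DZ libraries was left out (adjusted p 0.0636 to 0.167), although the difference itself stayed between -0.63 and -0.48. The calls of Bcl2a1b and Bcl2a1d were also lost without either Bach2(f/f) LZ library and with no filter on low values (adjusted p = 0.0764 and 0.0663, limma).

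In LZ cells the copies did not pass the test for genotype. The differences were -0.17 ± 0.12 for Bcl2a1b (95% interval -0.45 to 0.11, adjusted p = 0.313, limma), -0.15 ± 0.11 for Bcl2a1d and -0.15 ± 0.10 for Bcl2a1a. These values rest on the 2 Bach2(+/+) LZ libraries, which lay apart. Without replicate 1 all 3 copies passed as lower in Bach2(f/f) (-0.37 to -0.30, adjusted p 0.00802 to 0.0346, limma), and without replicate 2 the differences were 0.0064 to 0.026. The difference between the zones in the genotype effect was 0.41 ± 0.14 for Bcl2a1a, 0.35 ± 0.17 for Bcl2a1b and 0.34 ± 0.15 for Bcl2a1d, and none of these passed (adjusted p 0.385 to 0.481, limma). A genotype effect on the copies particular to DZ was therefore not shown.

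The copies kept nearly fixed proportions in all libraries. Bcl2a1b was at 2.54 to 2.87 times the FPKM of Bcl2a1a within each library, and Bcl2a1d at 1.52 to 1.69 times. Because reads can fit more than 1 copy, the 3 rows are not 3 separate measurements, and copy-specific regulation cannot be read from them.

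Mcl1, which encodes the short-lived protein MCL1, was the only member called lower in LZ cells with floxed Bach2. The LZ means of the other members were also lower in Bach2(f/f), without a call. Mcl1 was at 190 and 193 FPKM in Bach2(+/+) LZ, 151 and 149 in Bach2(f/f) LZ, 187 and 195 in Bach2(+/+) DZ and 178 and 171 in Bach2(f/f) DZ. The 2 Bach2(f/f) LZ libraries were the lowest of all 8. In LZ the Mcl1 mean fell by 21.4% with floxed Bach2 (-0.35 ± 0.040, 95% interval -0.44 to -0.25, adjusted p = 0.00211, limma). Under the 19 alternatives run, this difference was -0.43 to -0.33 and the adjusted p stayed at 0.0198 or below. In DZ the Mcl1 mean differed by -8.29% and did not pass (-0.12 ± 0.040, adjusted p = 0.0967, limma). The difference between these effects was -0.22 ± 0.056 (95% interval -0.36 to -0.087), with an adjusted p of 0.336 by limma, so that the larger value in LZ was not shown to differ from that in DZ.

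The zone comparison of Mcl1 depended on the genotype group in its call but not in a tested difference. In Bach2(+/+) cells LZ and DZ were at nearly the same level (0.0061 ± 0.040, 95% interval -0.089 to 0.10, adjusted p = 0.923, limma). In Bach2(f/f) cells Mcl1 was 1.16-fold higher in DZ than in LZ (LZ minus DZ -0.22 ± 0.040, adjusted p = 0.0077, limma). This call was lost without Bach2(f/f) LZ replicate 2 (adjusted p = 0.0535) or Bach2(f/f) DZ replicate 1 (adjusted p = 0.0623).

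Bcl2l1 was higher in LZ in both genotypes. The gene encodes BCL-XL, which holds BAX and BAK in check in many cell types. It was at 10.9 and 11.9 FPKM in Bach2(+/+) LZ, 8.89 and 11.2 in Bach2(f/f) LZ, 5.72 and 5.04 in Bach2(+/+) DZ and 5.67 and 5.25 in Bach2(f/f) DZ. Every LZ library was above every DZ library, and the genotypes overlapped within each zone. The LZ to DZ fold was 2.11 in Bach2(+/+) (0.96 ± 0.11, adjusted p = 0.00183, limma) and 1.84 in Bach2(f/f) (0.77 ± 0.11, adjusted p = 0.00347, limma). The genotype difference was -0.17 ± 0.11 in LZ (95% interval -0.44 to 0.10) and 0.018 ± 0.11 in DZ (-0.25 to 0.29). Neither passed, and the intervals hold differences in both directions.

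Bcl2l2, which encodes BCL-W, was low throughout and passed no test. It was at 1.63 and 2.26 FPKM in Bach2(+/+) LZ, 1.46 and 1.36 in Bach2(f/f) LZ, 1.38 and 1.44 in Bach2(+/+) DZ and 1.29 and 1.48 in Bach2(f/f) DZ. Both Bach2(+/+) LZ libraries lay above the other 6, and replicate 2 was the highest. The genotype difference in LZ was -0.28 ± 0.12 (adjusted p = 0.119, limma; 0.0350 without Bach2(+/+) LZ replicate 1).

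Bcl2, the founding member, did not reach 1 FPKM in any library and was therefore not tested in the fit used. It was at 0.657 and 0.613 FPKM in Bach2(+/+) LZ, 0.677 and 0.545 in Bach2(f/f) LZ, 0.243 and 0.1996 in Bach2(+/+) DZ and 0.163 and 0.160 in Bach2(f/f) DZ. All 4 LZ libraries lay above all 4 DZ libraries. Judged from the ratio of the lowest values, the DZ libraries were the deeper ones. The part of depth in the Bcl2 values was not tested. When all genes with a value above 0 were fitted, the LZ minus DZ difference was 0.42 ± 0.049 in Bach2(+/+) (adjusted p = 0.00462, limma) and 0.47 ± 0.049 in Bach2(f/f) (adjusted p = 0.00273, limma). The genotype differences in that fit were -0.022 in LZ and -0.073 in DZ (adjusted p = 0.837 and 0.506, limma). Mcl1 and each Bcl2a1 copy were above Bcl2 in every library.

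Counted over the members, LZ against DZ gave 4 of 6 tested genes higher in LZ in Bach2(+/+), where 15.2% of all genes tested were called higher and 31.2% were called in either direction. It gave 4 higher and 1 lower in Bach2(f/f), where 18.0% were called higher, 16.1% lower and 34.1% in either direction. Of these, 3 were the Bcl2a1 copies. In the LZ genotype comparison 1 of 6 members (Mcl1) was called lower and 0 higher, against 12.7% lower, 18.4% higher and 31.1% in either direction of all genes. In DZ 3 of 6 (the Bcl2a1 copies) were called lower and 0 higher, against 5.23% lower, 6.63% higher and 11.9% in either direction of all genes. In LZ the background differed with the scaling, since 59% of the genes called were higher in Bach2(f/f) as deposited and 45.5% with upper quartile scaling. For the difference of the genotype effects, 0 of 6 members passed in limma, against 0.0283% of all genes. Without adjustment, 2 of 6 had a p under 0.05 (Bcl2a1a and Mcl1, in opposite directions). The share of all genes at that unadjusted level is not given here, so this count has no background. The median difference of the 6 members was -0.17 in LZ and -0.31 in DZ for genotype, against 0.022 and 0.014 over all genes tested. For LZ minus DZ the median was 1.45 in Bach2(+/+) and 1.56 in Bach2(f/f), against -0.0045 and 0.0065 over all genes. These counts and medians take the 3 Bcl2a1 copies as 3 genes, although they are not 3 separate measurements. The DZ genotype difference was -0.54 for the copies as 1 summed value, 0.018 for Bcl2l1, -0.018 for Bcl2l2 and -0.12 for Mcl1. The LZ minus DZ difference in Bach2(+/+) was 2.08, 0.96, 0.28 and 0.0061 in the same order. The comparisons share libraries, since each group enters both a genotype and a zone comparison.

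**Figure D2:**
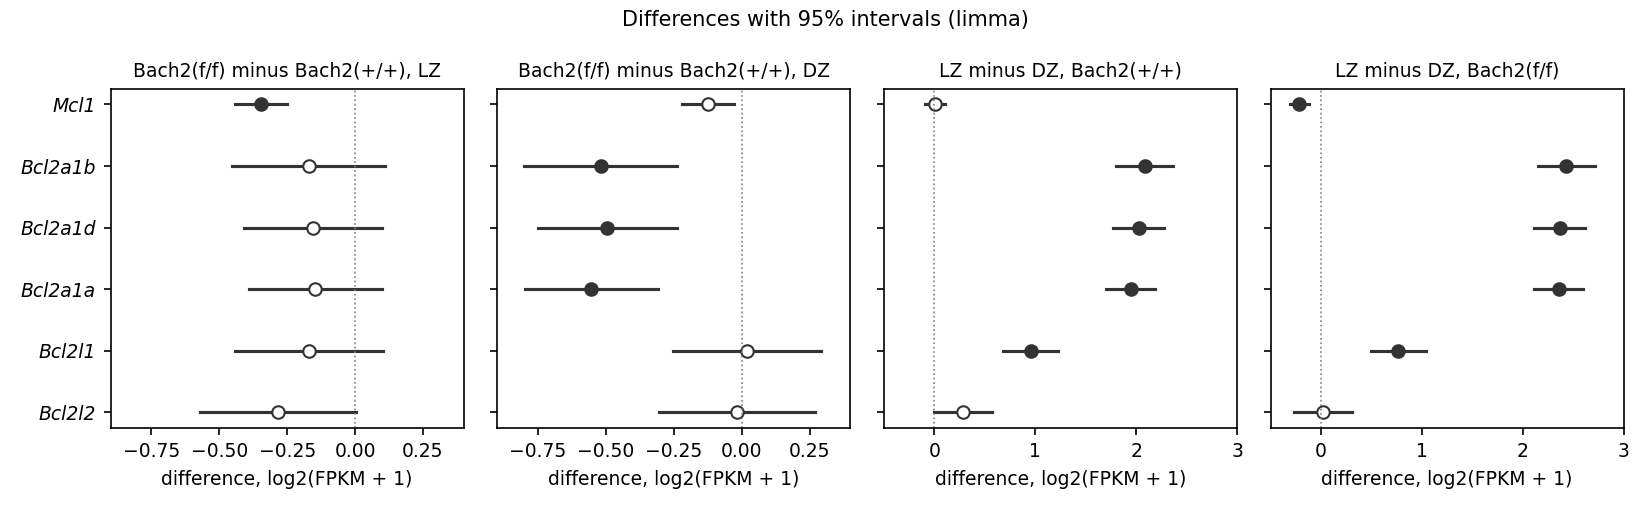
Differences on the log2(FPKM + 1) scale for the 6 members tested, with 95% intervals from limma, in 4 comparisons; filled points passed an adjusted p of 0.05, and the 2 zone panels have a wider axis than the 2 genotype panels. The Bcl2a1 copies lie near 2 or above in both zone panels, and Mcl1 is the filled point in the LZ genotype panel.

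Summed over the 7 members, the family was at 412 and 478 FPKM in Bach2(+/+) LZ, 377 and 372 in Bach2(f/f) LZ, 248 and 258 in Bach2(+/+) DZ and 224 and 216 in Bach2(f/f) DZ. The 4 groups did not overlap in this sum. Mcl1 made up 43.3% ± 4.04 of it in Bach2(+/+) LZ, 40.2% ± 0.00905 in Bach2(f/f) LZ, 75.3% ± 0.201 in Bach2(+/+) DZ and 79.6% ± 0.306 in Bach2(f/f) DZ (SD, n = 2). The Bcl2a1 copies together made up 53.6% ± 4.12, 56.6% ± 0.408, 21.9% ± 0.0607 and 17.2% ± 0.304. As summed FPKM they thus exceeded Mcl1 in every LZ library and were below it in every DZ library. The sum, and so its order against Mcl1, depends on how reads that fit several copies were counted, which is not known. Within a library, where scaling between libraries plays no part, there were 0.707 to 0.910 Mcl1 per summed Bcl2a1 FPKM in LZ, 3.44 in both Bach2(+/+) DZ libraries and 4.56 and 4.70 in Bach2(f/f) DZ. No test of these sums and ratios was made, and with 2 libraries a group an exact permutation test could not reach a p of 0.05.

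**Figure D3:**
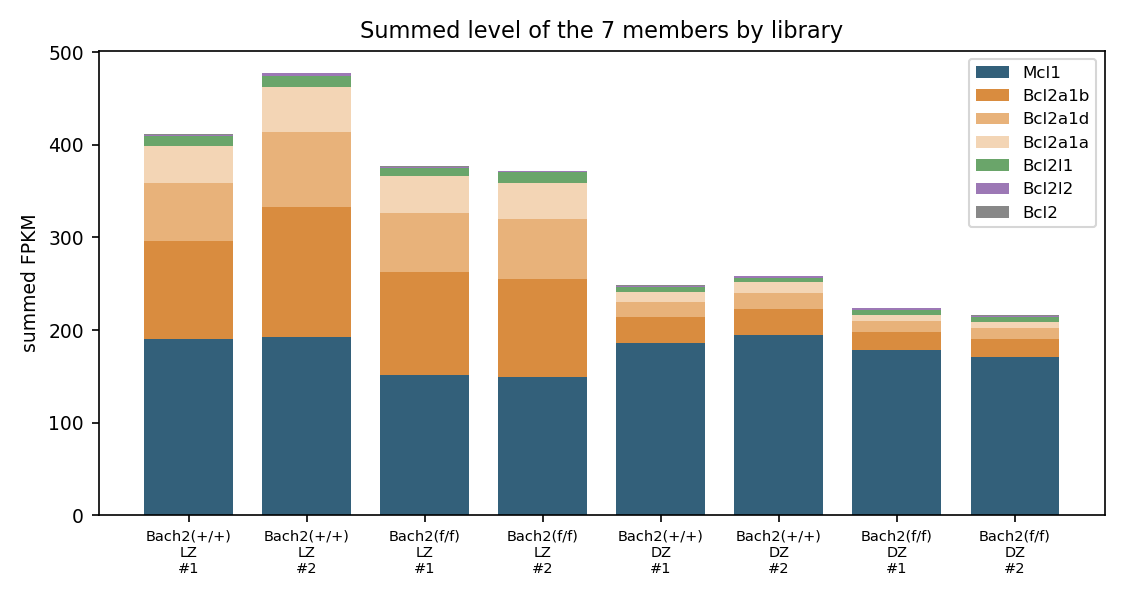
FPKM of the 7 members stacked in each of the 8 libraries, named by genotype, zone and replicate number. The Mcl1 part is similar in height across libraries, and the Bcl2a1 parts make most of the difference between LZ (372 to 478 in sum) and DZ (216 to 258).

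BIM, encoded by Bcl2l11, is a BH3-only protein that pro-survival members bind, and its transcript rose in Bach2(f/f) cells of both zones. It was at 8.05 and 7.15 FPKM in Bach2(+/+) LZ, 16.1 and 16.0 in Bach2(f/f) LZ, 13.0 and 13.8 in Bach2(+/+) DZ and 26.2 and 25.9 in Bach2(f/f) DZ. The Bcl2l11 level per 100 Mcl1 FPKM was 4.24 and 3.71, 10.6 and 10.7, 6.95 and 7.09, and 14.7 and 15.1 in the same order. Both Bach2(f/f) libraries were above both Bach2(+/+) libraries in each zone. Per Bcl2l11 FPKM, the Bcl2a1 copies were at 25.9 and 37.7, 13.3 and 13.1, 4.19 and 4.10, and 1.45 and 1.45, so that this ratio was highest in Bach2(+/+) LZ and lowest in Bach2(f/f) DZ. These are ratios of transcripts and not of proteins.

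**Figure D4:**
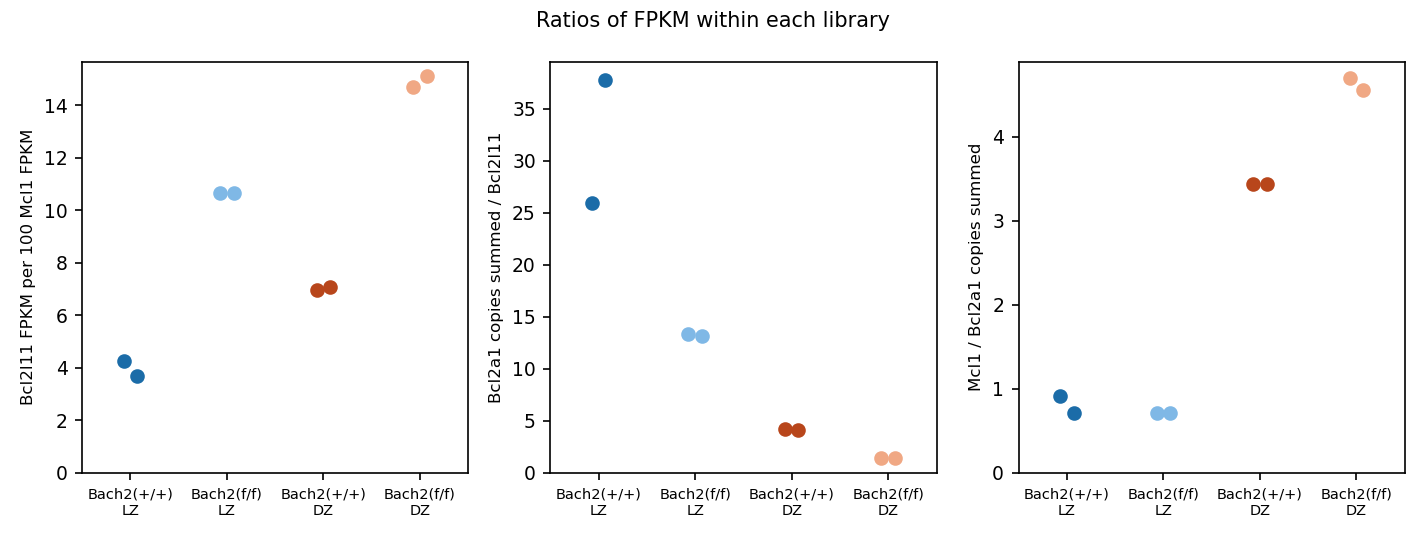
Ratios of FPKM within each of the 8 libraries by group: Bcl2l11 per 100 Mcl1, the summed Bcl2a1 copies per Bcl2l11, and Mcl1 per summed Bcl2a1 copies, each axis starting at 0. Bcl2l11 per 100 Mcl1 runs from 3.71 to 15.1 and is higher in Bach2(f/f) in each zone, while Mcl1 per Bcl2a1 copies differs mainly by zone.

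Other genes of the pathway were read from lists of pro-apoptotic genes, the mitochondrial caspase machinery, MCL1 turnover and survival signals. The lists, like the members, were chosen with earlier results of these data known, so their counts against all genes are no independent evidence. Of 8 pro-apoptotic genes tested, 1 rose and 1 fell with floxed Bach2 in LZ, and the same 2 genes did so in DZ. Of all genes tested, 31.1% were called in LZ (18.4% higher and 12.7% lower) and 11.9% in DZ (6.63% higher and 5.23% lower), and the counts of this and the next lists are read against these shares. The 2 genes were Bcl2l11 (0.99 ± 0.064 in LZ and 0.91 ± 0.064 in DZ) and Bmf, another BH3-only gene, which fell from 12.3 ± 0.823 to 6.13 ± 0.0448 FPKM in LZ and from 8.28 ± 0.124 to 5.07 ± 0.147 in DZ. The list median was 0.045 in LZ and 0.087 in DZ, against 0.022 and 0.014 over all genes tested. Bok, Bik and Hrk were below the filter. Both adjusted p values were 0.000887 or below in LZ and 0.0051 or below in DZ (limma).

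Of 15 genes of the mitochondrial caspase machinery, 3 rose and 1 fell in LZ and 1 rose in DZ, with medians of 0.070 in each zone. These counts are near the all-gene shares of 31.1% in LZ (18.4% higher and 12.7% lower) and 11.9% in DZ. Cycs, the gene of cytochrome c, went from 34.4 ± 2.01 to 47.8 ± 0.0206 FPKM in LZ (adjusted p = 0.00221, limma) and from 29.9 ± 1.18 to 36.1 ± 1.10 in DZ (adjusted p = 0.0287, limma). The initiator caspase gene Casp9 went from 15.4 ± 0.259 to 11.9 ± 0.479 in LZ (-0.35 ± 0.050). The channel genes Vdac2 and Vdac1 of the outer mitochondrial membrane rose by 0.24 ± 0.045 and 0.33 ± 0.070 in LZ. The LZ count of 4 was 2 without Bach2(f/f) LZ replicate 1, and the DZ count of 1 was 0 without any 1 of the 6 libraries other than those of Bach2(+/+) LZ and when only the DZ libraries were fitted.

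MCL1 protein is marked for destruction by ubiquitin ligases. Of 8 genes tested of MCL1 turnover, 2 rose in LZ: Cul1 (0.23 ± 0.044) and Skp1a (0.19 ± 0.036), which encode the scaffold and adaptor of the SCF ligase (adjusted p = 0.0106 and 0.0094, limma). This count is near the 18.4% of all genes called higher in LZ, and the list median was 0.067 in LZ and 0.038 in DZ. Both calls were lost without Bach2(f/f) LZ replicate 1. In DZ 0 passed in limma, against 11.9% of all genes. There 2 had an unadjusted p under 0.05, and the share of all genes at that level is not given here. The genes of the ligase HUWE1 and the deubiquitinase USP9X, which act on MCL1, were not called in either zone.

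Of 16 genes of survival signals, 3 fell in LZ and the same 3 fell in DZ, where 12.7% and 5.23% of all genes were called lower. In either direction the LZ count lies below the 31.1% of all genes called. The list median was -0.080 in LZ and -0.057 in DZ. The 3 genes were Il4ra, a subunit of the interleukin-4 and interleukin-13 receptors (-0.31 ± 0.051 in LZ and -0.30 ± 0.051 in DZ), Tnfrsf13c, the BAFF receptor gene (-0.21 ± 0.049 and -0.30 ± 0.049), and Nfkb2, whose product is the p100 precursor of NF-kB (-0.16 ± 0.047 and -0.45 ± 0.047), with adjusted p 0.00555 to 0.0449 over the 6 values (limma). Nfkb2 was at 27.2 ± 0.348 FPKM in Bach2(+/+) DZ and 19.7 ± 1.12 in Bach2(f/f) DZ. The Bcl2a1 copies were also lower there, but in LZ Nfkb2 was called lower and the copies were not. Rel, Rela, Relb and Nfkb1 were called in neither zone. Any link between Nfkb2 and the copies was not tested. In LZ the count of 3 was 1 without either Bach2(f/f) LZ library, 6 with upper quartile scaling and 5 after quantile normalization. In DZ it was 1 without either Bach2(f/f) DZ library or Bach2(+/+) DZ replicate 2. Between the zones, 10 of the 16 were higher and 2 lower in LZ in each genotype. Of all genes, 15.2% (Bach2(+/+)) and 18.0% (Bach2(f/f)) were called higher, and the choice of this list was not independent of these data. Cd40, which carries T cell help and was chosen for mention after its values were seen, was at 61.4 ± 0.734 FPKM in Bach2(+/+) LZ and 23.9 ± 0.833 in Bach2(+/+) DZ (1.33 ± 0.056).

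**Figure D5:**
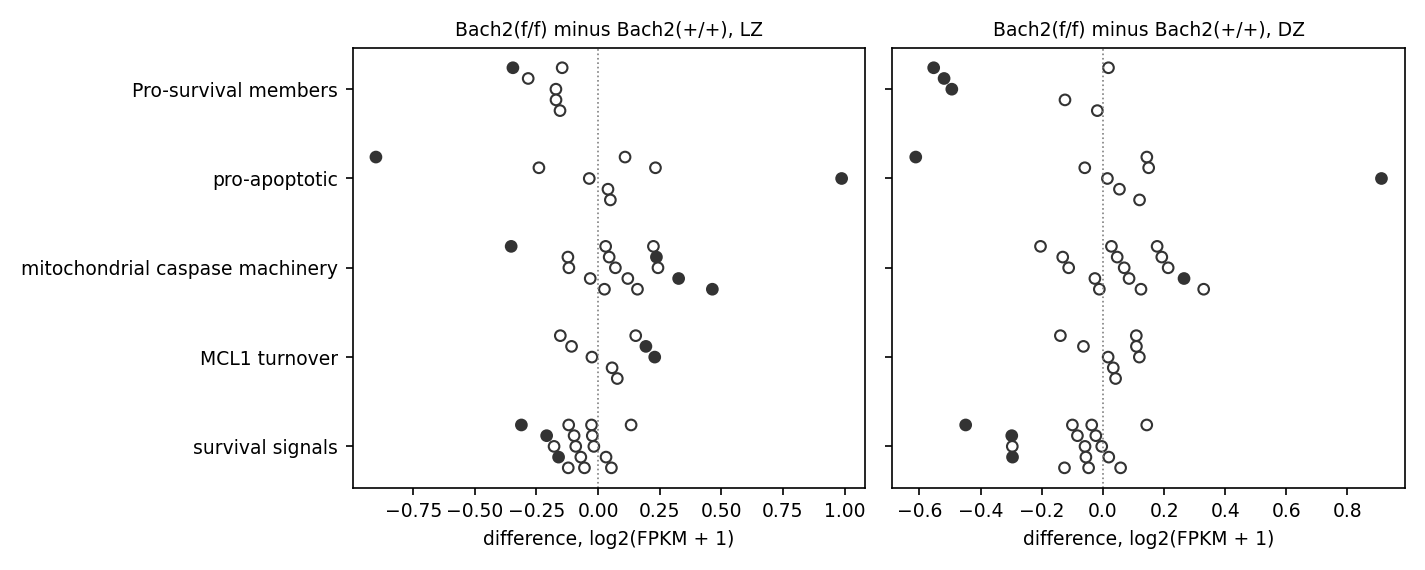
Difference between Bach2(f/f) and Bach2(+/+) in LZ and in DZ for the tested genes of 5 lists, on the log2(FPKM + 1) scale; each point is a gene, filled where it passed an adjusted p of 0.05 by limma, the vertical spread within a list carries no value, and the 2 panels have different axis ranges. The outlying filled points of the pro-apoptotic list are Bcl2l11 to the right and Bmf to the left in both panels.

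The genes whose pattern over the 8 libraries was most like that of each member were ranked by Pearson's r of log2(FPKM + 1). For Bcl2a1a, Bcl2a1b and Bcl2a1d the closest gene was Cd83, a surface marker of LZ cells (r = 0.9985 to 0.999), which was at 291 to 359 FPKM in LZ and 71.4 to 98.3 in DZ. Next were Tmem123 (0.998) and the phosphatase gene Ptpn6 (0.997) for Bcl2a1a, Tmem123 and Lta for Bcl2a1b and Lta and Ptpn6 for Bcl2a1d. For Bcl2l1 they were Cfp (0.992), Plek (0.990) and Prkab2 (0.988), and for Mcl1 Sharpin (0.994), Eps8l1 (0.985) and Trpv2 (0.980). For Bcl2l2 they were Zfp518a (0.991), Zfp87 (0.961) and Tmem192 (0.951). Among the members, Bcl2l1 followed the Bcl2a1 copies (r = 0.954 to 0.962), and Mcl1 did not (-0.268 to -0.259). The 8 points are 4 groups of 2, so such values mostly reflect the order of the group means.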

How the data were processed

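RNA-seq of sorted germinal centre B cells was analysed from 1 table of 8 libraries. The authors deposited FPKM per gene symbol, a unit taken from the values and the Cufflinks-style header. The submitters' processing notes list TopHat2 2.0.8, Cufflinks 2.1.1 and mm9 without roles or options, so the handling of reads that fit several Bcl2a1 copies is unknown. The row holding library codes was dropped, and 0 columns lacked a matching sample. FPKM summed to 502214 to 540885 per library.

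Values were taken as log2(FPKM + 1). The 10610 genes reaching 1 FPKM in 2 or more libraries were tested with limma 3.58.1 in R 4.3.3, using group means over all 8 libraries, an intensity trend, 2-sided tests and Benjamini-Hochberg adjustment within each comparison (4 residual and 2.46 prior degrees of freedom). The fit was tested on simulated data. Alternatives changed the pseudocount, filter, scaling, variance prior, libraries fitted and replicate block, summed the Bcl2a1 copies, or left out each library.

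The members and gene lists were chosen with earlier results of these data known. All members were named; from each list the 3 genes of smallest p past the threshold in each genotype comparison, and for likeness the 3 genes of highest r, leaving out small RNA genes and unnamed gene models. Sequences are from GENCODE M21 and RefSeq (GRCm38.p6), and identities were computed with Biopython 1.88. No coordinates were set on the authors' build. Some marker genes are not reported here.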

Additional observations from a re-analysis of the deposited data

How the results depend on the processing

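Of the counts of members called, the LZ genotype count was 1 and the DZ genotype count 3. The LZ to DZ counts were 4 in Bach2(+/+) and 5 in Bach2(f/f), and the interaction count was 0. With no filter on low values the DZ genotype count was 1. With 1 library left out it was 0 to 3, the LZ genotype count 1 to 5, the zone counts 4 to 5 in each genotype and the interaction count 0 to 0. The replicate numbers in the titles pair nothing that the labels state: deviations of same-numbered libraries correlated at -0.108 to 0.124. With the replicate block the DZ genotype count was 2 (Bcl2a1b adjusted p = 0.0579, limma), with no intensity trend it was also 2 (0.0527), and under the block the counts of the other 4 comparisons were the same.

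Over all genes, the DZ genotype count of 1258 was 649 with only the DZ libraries and 105 to 1339 with 1 library left out. The lowest values, 105 and 107, came without Bach2(f/f) DZ replicates 1 and 2. The LZ genotype count of 3299 was 2177 with only the LZ libraries and 1703 to 3140 with 1 library left out. The zone counts were 3312 in Bach2(+/+) (1678 with only those libraries) and 3623 in Bach2(f/f) (2001 without Bach2(f/f) DZ replicate 1).

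Sign changes occurred only in values that had not passed. With 1 library left out, the LZ genotype differences ranged from -0.30 to 0.0064 for Bcl2a1a, from -0.37 to 0.026 for Bcl2a1b and from -0.33 to 0.025 for Bcl2a1d, lowest without Bach2(+/+) LZ replicate 1 and highest without replicate 2. The zone difference of Mcl1 in Bach2(+/+) ranged from -0.025 (without Bach2(+/+) DZ replicate 1) to 0.037, and was -0.0055 without Bach2(+/+) LZ replicate 2. The DZ genotype difference of Bcl2l1 ranged from -0.058 (without Bach2(+/+) DZ replicate 2) to 0.095, and was -0.029 without Bach2(f/f) DZ replicate 1. That of Bcl2l2 ranged from -0.075 to 0.038 (without Bach2(f/f) DZ replicate 1). The zone difference of Bcl2l2 in Bach2(f/f) ranged from -0.041 (without Bach2(f/f) DZ replicate 1) to 0.072, was -0.016 without Bach2(f/f) LZ replicate 1, and was -0.0070 with quantile normalization. The cause of these changes was not tested. Bcl2 and Bcl2l2 had the lowest levels of the members, and the part of depth in their values was not tested.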

Other observations

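A further copy, Bcl2a1c, which is not among the members, followed the same zone pattern at a lower level. It was at 6.89 ± 1.22 FPKM (SD, n = 2) in Bach2(+/+) LZ, 5.95 ± 0.781 in Bach2(f/f) LZ, 1.23 ± 0.126 in Bach2(+/+) DZ and 1.16 ± 0.459 in Bach2(f/f) DZ (LZ minus DZ 1.82 ± 0.18 in Bach2(+/+) and 1.70 ± 0.18 in Bach2(f/f), adjusted p = 0.000975 and 0.000979, limma). Its GENCODE transcript differs more from the other copies: 89.6% of its 50-base windows occurred in no other copy, and its 250 bases before the start site held no TGANTCA. The genotype differences of Bcl2a1c passed in neither zone. Of 4 tested genes among 6 other BCL2-like genes, Bcl2l14 was lower in LZ than in DZ in both genotypes (-0.41 ± 0.11 and -0.39 ± 0.11), at 0.720 to 1.79 FPKM on average. Of all genes tested, 16.1% were called lower in LZ in each genotype. For genotype, 0 of the 4 passed in limma in either zone, against 31.1% of all genes in LZ and 11.9% in DZ. In each zone 1 had an unadjusted p under 0.05, and the share of all genes at that level is not given here.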
